A study of Mus musculus with 20 samples.

Results

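The integrin and laminin genes of mouse skin were followed through the cell classes of growing dorsal skin in mice with and without Fgf5. The 38 genes described were chosen by symbols that name an integrin chain (28 genes) or a laminin chain (10 genes), from 31055 features in all. The symbol rule also takes in Itgbl1, an integrin beta-like protein that is not a receptor subunit. Cells came from dorsal skin labelled as epidermis and in anagen, when hair follicles grow. The Mutant group carried Nfatc1-CreER, R26R and mTmG and was Fgf5-/-, with tamoxifen given for 3 days from postnatal day 23 or 24. The Control group carried the same 3 transgenes, with tamoxifen given for 3 days from postnatal day 21 or 22. Nfatc1-CreER is a tamoxifen-dependent recombinase expressed where Nfatc1 is active, among other places in bulge stem cells of the hair follicle, and R26R and mTmG are reporters of its activity. Fgf5 encodes a secreted growth factor whose loss is known to lengthen anagen, and the comparison asks what differs in growing skin without it. The start of tamoxifen differed with genotype and cannot be told apart from it.

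Integrins are cell surface receptors made of an alpha and a beta chain that bind matrix proteins or other cells and connect them to the cytoskeleton. Laminins are secreted trimers of an alpha, a beta and a gamma chain and form a main part of every basement membrane. In the epidermis, the Itga6 and Itgb4 chains pair in hemidesmosomes and hold basal keratinocytes to a laminin that contains the Lama3 and Lamb3 chains. Itgb1 pairs with many alpha chains, among them the collagen receptor chain Itga2 and the laminin receptor chain Itga3.

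The deposited values were counts of unique molecular identifiers (UMIs), and each group was a single pooled matrix, of 16 listed samples for Mutant and 4 for Control. Each group therefore counts as 1 sample, no test between groups was possible, and the intervals given with values cover counting error only. After filtering, 11047 Mutant cells with a median of 6003 UMIs and 13743 Control cells with a median of 5583 UMIs were analysed. The median share of mitochondrial UMIs was 4.93% in Mutant cells and 3.21% in Control cells. Fgf5 transcripts were still counted in the mutants, with 813 UMIs (9.21 CPM, UMIs scaled to a common total) in Mutant cells and 1567 UMIs (12.1 CPM) in Control cells, so 3' tags of this gene do not check the genotype. The matrices also held 59 barcode sequences in common, 36 of them among the analysed cells. Clusters were named from marker genes, with the integrin and laminin genes kept out of the clustering, which gave 22 classes. Fibroblast-like, dermal papilla cell-like and pericyte or vascular muscle cell-like classes were among them, so the cells were not epidermal alone. The 10 classes that held 200 or more cells of both libraries were compared.

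Of the 38 genes, 33 reached 30 CPM in at least 1 of the 20 classes that had 50 or more cells in each library. For 27 of these 33, the class with the highest level was the same in Mutant and Control. Itga10, Itgad, Itgax, Itgb2l and Lama1 stayed below 30 CPM in every such class. The hemidesmosome chain Itga6 was highest in interfollicular basal keratinocyte-like cells (the basal layer of the epidermis between follicles), at 443 CPM in Mutant and 428 CPM in Control. Lama3 and Lamb3, and the receptor chains Itga2, Itga3 and Itgb6, had their highest level in the same class in both libraries. For 2 of these the lead was narrow in 1 library. Itgb6 in Control was at 37.7 CPM in basal and 36.8 CPM in outer root sheath keratinocyte-like cells. Itga3 in Mutant was at 82.6 CPM in basal and 81.5 CPM in outer root sheath keratinocyte-like cells. Lama5, a laminin chain of the hair follicle basement membrane, was highest in outer root sheath keratinocyte-like cells, at 102 CPM in Mutant and 97.6 CPM in Control.

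Mesenchymal and nerve-associated classes held other chains. Dermal papilla cell-like cells, the mesenchymal cells at the base of the follicle, had the highest level of Lama2, Lamc3 and Itga9. Itga9, a receptor chain for tenascin and other matrix proteins, was at 229 CPM in Mutant and 242 CPM in Control there. Pericyte or vascular muscle cell-like cells were highest for Itga8, Itga11, Lamb2, Itgbl1 and Itgb1 in both libraries. That class took its name from the best-scoring marker set (5.09), but dermal sheath markers came next (4.09). Dermal sheath markers summed to 14809 CPM in Mutant and 14926 CPM in Control there. Pericyte or vascular muscle markers summed to 4582 CPM in Mutant and 4522 CPM in Control. The class may therefore not be of 1 cell type. Itgb1 reached 980 CPM (95% interval 910 to 1053) in Mutant and 897 CPM (821 to 977) in Control in this class. Schwann cell-like cells led for Itga1, Itga7 and Itgb8, with Itgb8, which pairs with the Itgav chain, at 300.4 CPM in Mutant and 204 CPM in Control. The 95% intervals of these 2 levels, 226 to 391 and 138 to 291, overlapped. Cldn5 and the lymphatic endothelial genes Lyve1, Mmrn1 and Prox1 were among the leading genes of cluster 21, which was highest for Lama4, a laminin chain of vessel walls, and for Itga5, a fibronectin receptor chain. T cell or NK cell-like cells led for Itgae, Itgb7, Itgal and Itgav.

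**Figure D1:**
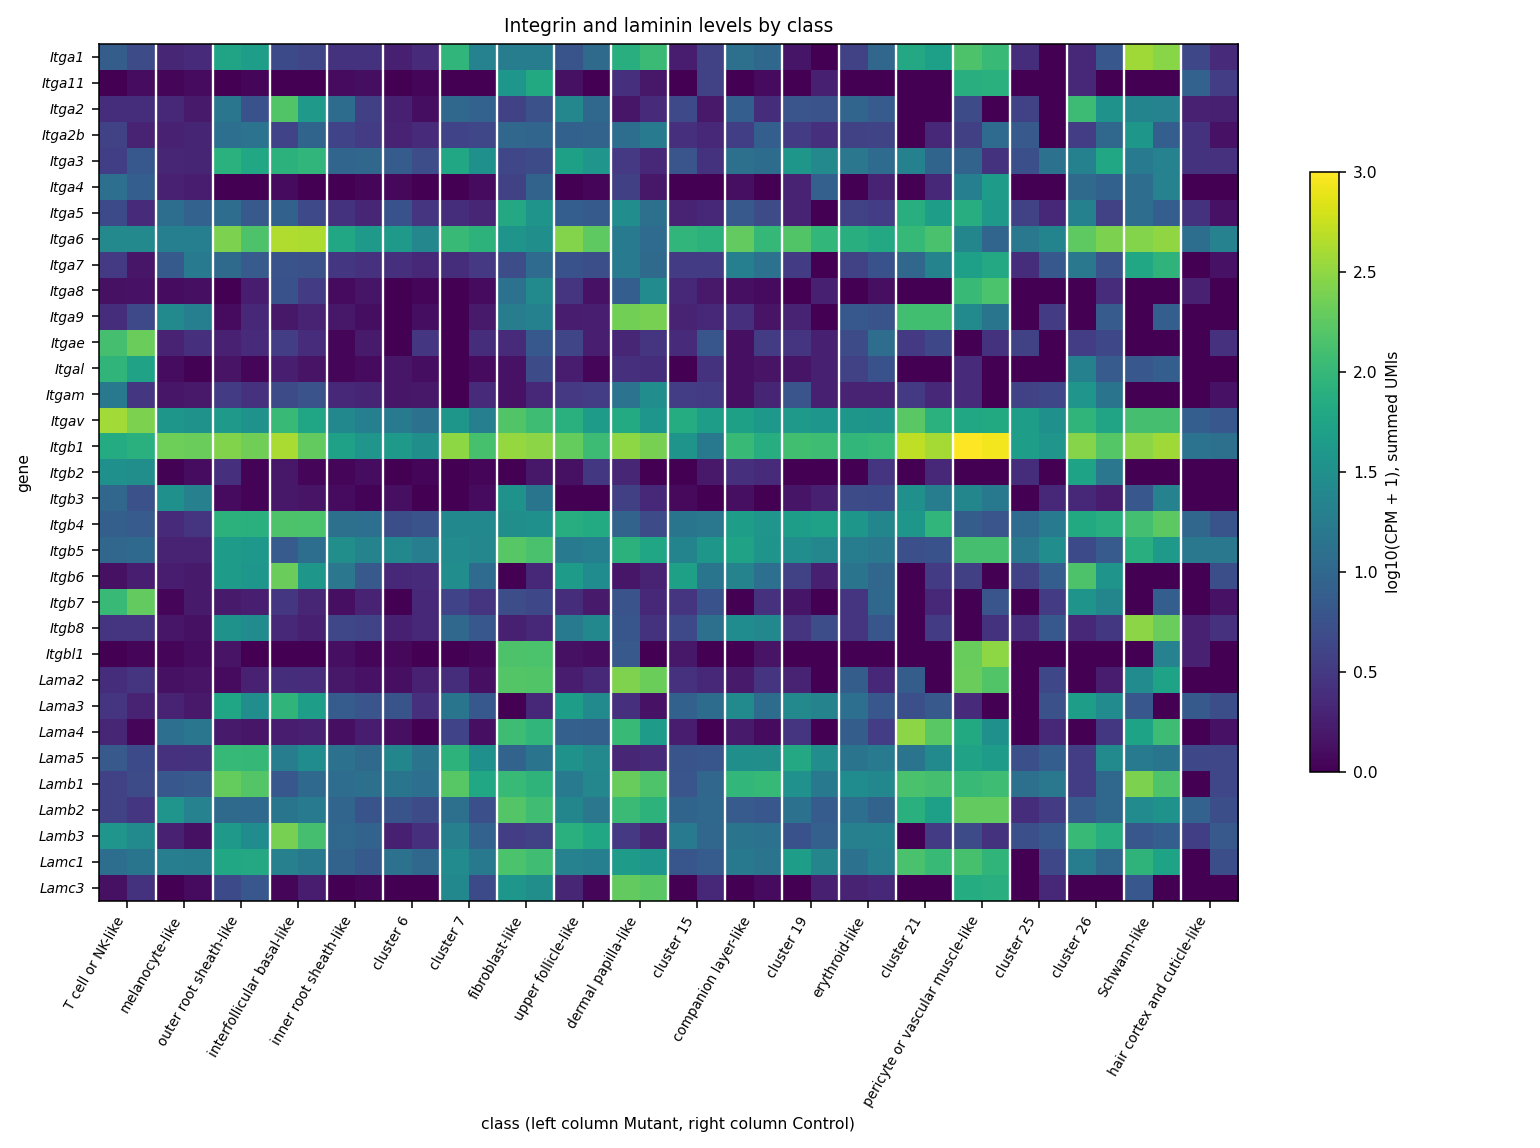
Level of the 33 genes that reached 30 CPM (rows) in the 20 classes with 50 or more cells in each library, as log10(CPM + 1), with Mutant in the left and Control in the right column of each class. The class with the highest level was the same in both libraries for 27 of the 33 genes, and Itga6 stands out in basal keratinocyte-like cells at 443 CPM in Mutant and 428 CPM in Control.

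A difference between libraries was called large where the ratio was 2-fold or more, its 95% bound closer to no difference was over 1.5-fold, and the higher library reached 30 CPM. Over the 10 compared classes, 79 pairs of a gene and a class had enough UMIs, and they covered 28 of the 38 genes. The size rule called 5 of the 79 pairs higher in Mutant, while 3.79% of all 44731 feature and class pairs were called higher. It called 0 of the 79 lower in Mutant, while 5.14% of all pairs were called lower. Of the 5 large pairs, 3 were in interfollicular basal keratinocyte-like cells (Itgb6, Itga2 and Itgb1). Lama3 in outer root sheath keratinocyte-like cells and Lama4 in dermal papilla cell-like cells were the others.

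Smaller differences leaned the same way. The ratio of Mutant over Control was above 1 in 69 of the 79 pairs (87.3%), against 47.5% of all pairs, and in 72 of the 79 pairs with either TMM factors or DESeq2 size factors. The 95% interval lay above 0 on the log2 scale in 53 of the 79 member pairs and below 0 in 5, against 32.5% above and 37.7% below over all pairs. Of the 79 pairs, 5 were marked as possible free RNA, all of integrin genes. The median log2 ratio was 0.36 over the member pairs and -0.04 over all pairs, and in 10 of 10 classes the members' median lay above that of all features. That median rested on 2 members each, Itga6 and Itgb1, in the inner root sheath class and cluster 6. In melanocyte-like cells it rested on 4. Itga6, Itgb1 and Itgav recurred most, in 7, 10 and 8 of the classes. Integrin genes had a median of 0.37 over 54 pairs, and laminin genes a median of 0.34 over 25 pairs. The pairs are not independent of each other, since they repeat genes across classes of the same 2 libraries. The members were also chosen with earlier results of these data known. The receptor chain Itgav was above 0 with its whole interval in 8 of 8 classes, at log2 ratios of 0.21 to 0.90. Itgb1 was so in 9 of 10 classes, and the exception was the T cell or NK cell-like class, at -0.21 (-0.46 to 0.03). Within that class, Itgb1 went the other way in cluster 17, at 0.84 (0.36 to 1.3), with 191 Mutant and 547 Control cells. By contrast, Itgb4 had an interval above 0 in 0 of 5 classes, with log2 ratios of -0.09 to 0.32, and the -0.09, in fibroblast-like cells, flips to 0.10 with TMM factors and 0.11 with DESeq2 size factors.

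**Figure D2:**
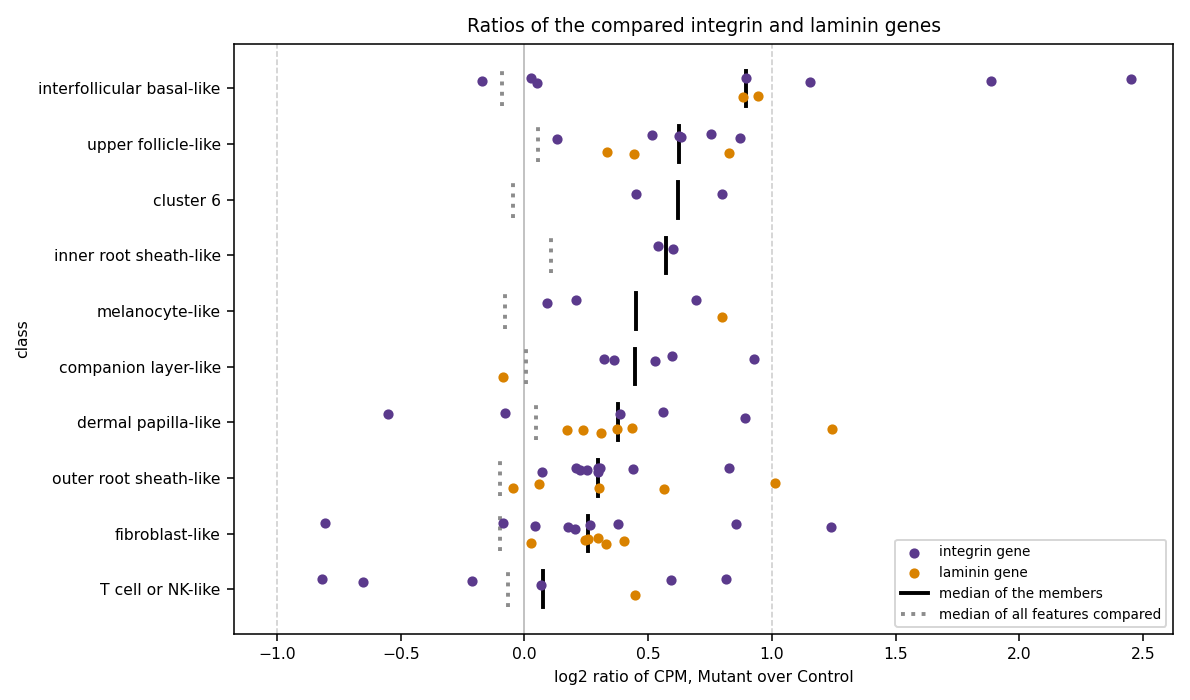
Log2 ratio of CPM, Mutant over Control, of each compared integrin gene and laminin gene (points) in the 10 compared classes. Solid bars are the members' medians and dotted bars the medians of all features, and the solid bar lies to the right of the dotted one in every class. In the inner root sheath class and cluster 6 the solid bar rests on 2 members each. Dashed lines mark 2-fold.

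Interfollicular basal keratinocyte-like cells numbered 1344 in Mutant and 951 in Control. Itgb6 rose the most there. Its product pairs with the Itgav chain and binds fibronectin, tenascin and latent TGF-beta, and in keratinocytes it is known as a chain that is scarce at rest and abundant in wounds. Itgb6 had 1784 UMIs (206 CPM, 95% interval 196 to 215) in Mutant and 268 UMIs (37.7 CPM, 33.3 to 42.5) in Control, a log2 ratio of 2.45 (2.26 to 2.64). Itga2 had 1325 UMIs (153 CPM) in Mutant and 294 UMIs (41.3 CPM) in Control, a log2 ratio of 1.89 (1.70 to 2.07). Itgb1 was at 416 CPM in Mutant and 187 CPM in Control, a log2 ratio of 1.16 (1.06 to 1.25). These 3 were the large pairs among 9 members compared in this class, where 6.46% of 4368 features were called higher and 14% lower in Mutant.

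The chains Lamb3 and Lama3 of the hemidesmosome laminin did not pass the size rule. Lamb3 was at 240.4 CPM in Mutant and 130.4 CPM in Control (log2 ratio 0.88, 0.77 to 1.0), and Lama3 at 90.6 and 47.1 CPM in Mutant and Control (0.94, 0.76 to 1.13). Itgav was at 105 CPM in Mutant and 56.5 CPM in Control (0.90, 0.73 to 1.07). The hemidesmosome receptor showed little difference: Itga6 had a log2 ratio of 0.05 (-0.02 to 0.12), and Itgb4, at 142 CPM in Mutant and 139.9 CPM in Control, one of 0.03 (-0.10 to 0.15). Itga3, the other main laminin receptor chain of the epidermis, was at 82.6 CPM in Mutant and 92.9 CPM in Control (-0.17, -0.32 to -0.02), a sign that flips to 0.12 with TMM factors and 0.13 with DESeq2 size factors. Across the 9 members compared in this class, log2 ratios ran from -0.17 for Itga3 to 2.45 for Itgb6. Scaling by TMM factors instead of class totals moved every log2 ratio in this class up by 0.29, which put Lama3 (1.23), Lamb3 (1.17) and Itgav (1.19) past the size rule.

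**Figure D3:**
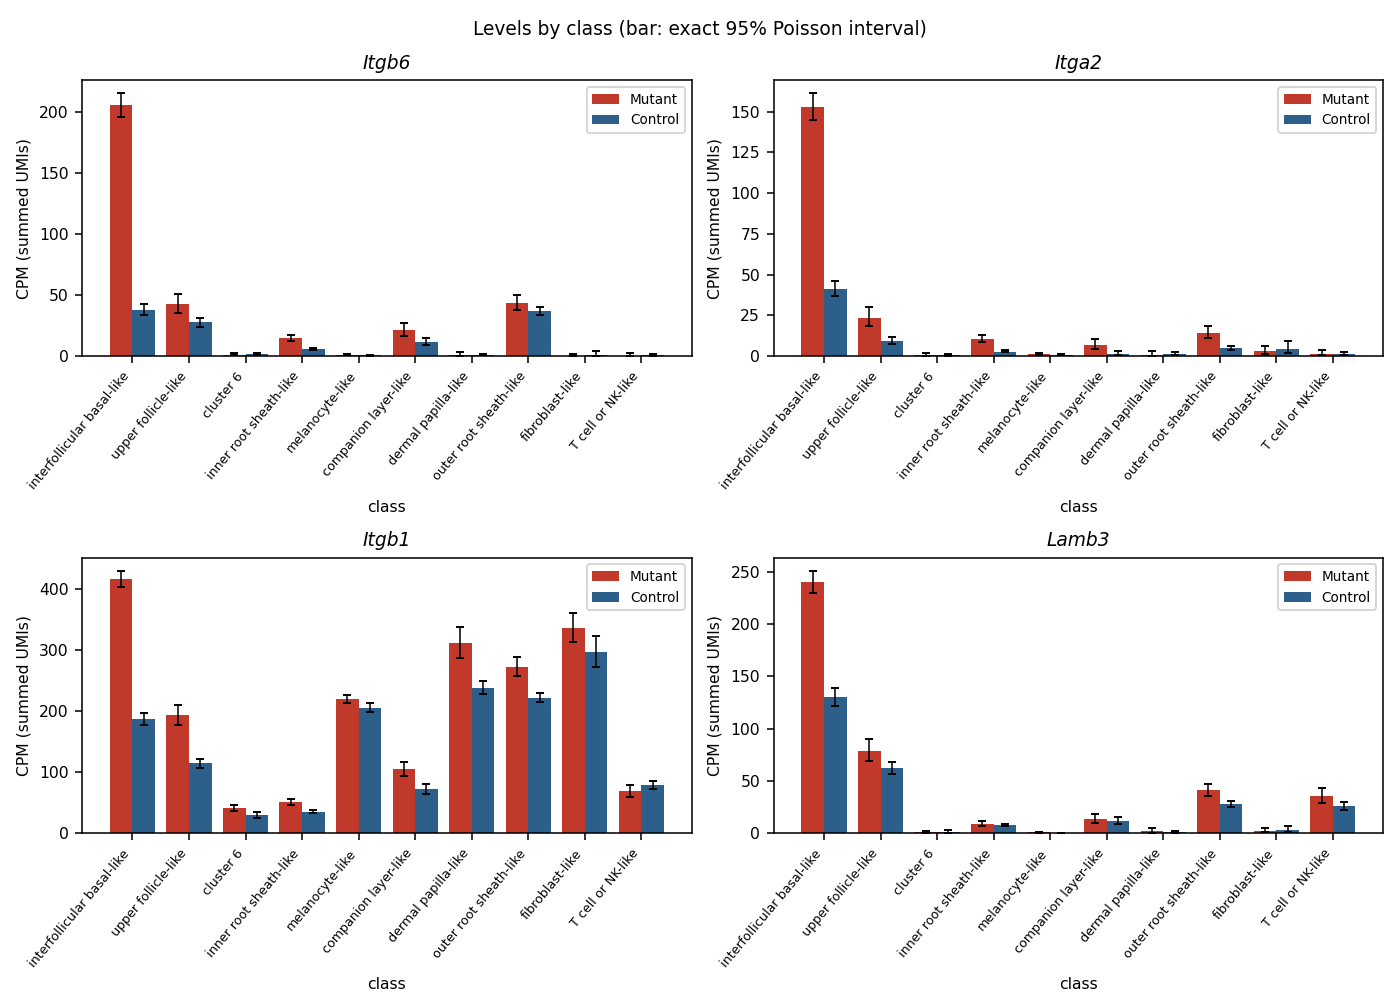
Levels of Itgb6, Itga2, Itgb1 and Lamb3 in the 10 compared classes, as CPM of summed UMIs with exact 95% Poisson intervals, Mutant left of Control. In basal keratinocyte-like cells Itgb6 stood at 206 CPM in Mutant and 37.7 CPM in Control.

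The share of cells with the transcript differed as well. After each cell was thinned to 1500 UMIs, Itgb6 was counted in 24.2% of 1335 Mutant cells (exact 95% binomial interval 21.9% to 26.6%) and in 4.80% of 917 Control cells (3.51% to 6.39%) of the basal class, with 9 Mutant and 34 Control cells left out as shallower. Without thinning, the shares were 57.1% in Mutant, at a median of 4834.5 UMIs, and 18.6% in Control, at a median of 5131 UMIs. Itgb6 is not known as a gene of lymphocytes, and in the T cell or NK cell-like class it was counted in 0 of 1018 thinned Mutant cells, which allows a share of cells with a UMI of up to 0.295% (3 cells), and in 0.117% of 2558 thinned Control cells. Shallower cells of that class were left out of these counts, which cover 1018 of its 1301 Mutant cells and 2558 of its 2950 Control cells. Over all cells of the class before thinning, the median was 1947 UMIs in Mutant and 2264 UMIs in Control. Itga2 was counted in 17.6% of the thinned Mutant basal cells and in 4.80% of the thinned Control basal cells.

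The basal class was made of clusters that each held mostly 1 library. Cluster 5 held 1285 Mutant and 7 Control cells, and cluster 10 held 59 Mutant and 944 Control cells, so a cluster may be a library rather than a cell state. The 10 leading genes of cluster 5 included the epithelial cytokine genes Tslp, Ccl20 and Il33 and the prostaglandin enzyme gene Ptgs2. In cluster 10 alone, Itgb6 was at 32.1 CPM from 9 UMIs in Mutant and 37.7 CPM in Control (log2 ratio -0.23, -1.38 to 0.72). Itgb1 was likewise at -0.31 (-0.79 to 0.13) and Itga2 at 0.30 (-0.59 to 1.07) in that cluster, neither of them past the size rule. Of the 9 members compared in the class, 6 were below 0 in cluster 10, among them Itgav (-0.81, -1.95 to 0.13), Lama3 (-0.26, -1.27 to 0.60) and Itga6 (-0.38, -0.69 to -0.08). When cells were instead clustered without any gene of large ratio, the matching basal class held 1471 Mutant and 1105 Control cells. Its overlap with the first class, as shared cells over cells in either, was 0.81. Its ratios therefore largely reuse the same counts and are no independent check. In that class, Itgb6 had a log2 ratio of 2.37, Itga2 1.98 and Itgb1 1.21, all past the size rule. With the libraries clustered separately, Itgb6 (2.05) and Itga2 (1.61) passed and Itgb1 (0.99) did not.

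**Figure D4:**
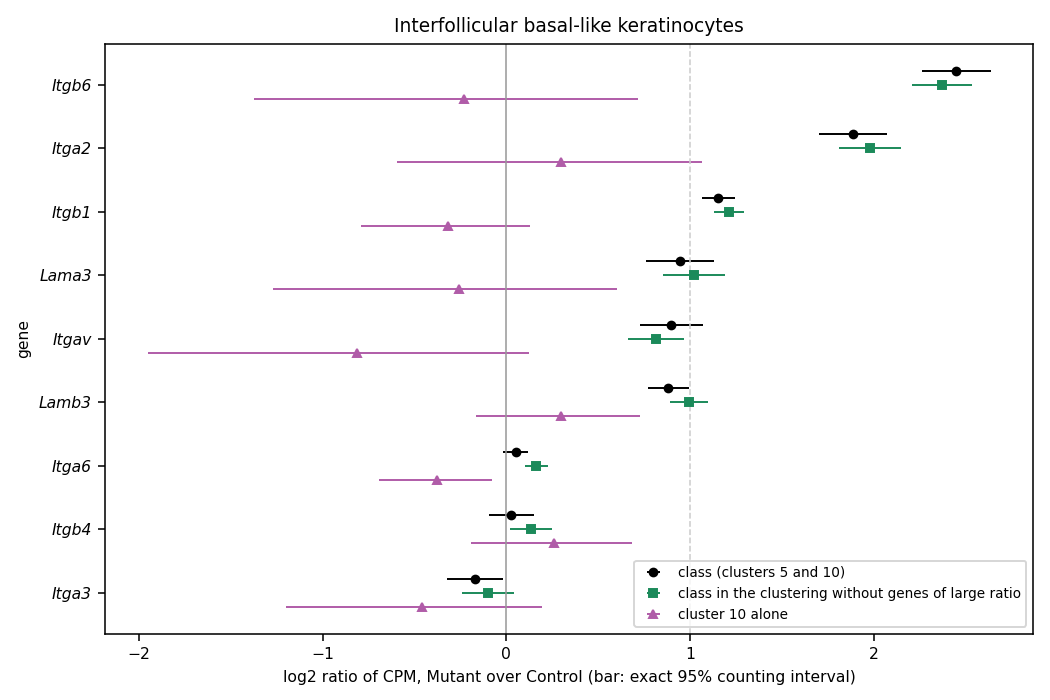
Log2 ratio of Mutant over Control, with exact 95% counting intervals, of the 9 members compared in basal keratinocyte-like cells. Circles are the class as clustered, squares the class in the clustering without genes of large ratio and triangles cluster 10 alone with its 59 Mutant cells. Circles and squares lie close together and rest largely on the same cells, while 6 of the 9 triangles lie below 0, those of Itgb6 and Itgb1 among them.

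Markers of neighbouring follicle compartments differed between the libraries in the same class. The 11 basal markers summed to 27884 CPM in Mutant and 31796 CPM in Control. The 10 upper follicle markers summed to 6447 CPM in Mutant and 1337 CPM in Control, with 1 of the 10 at 0 in each library, and the largest part of the difference came from Krt17, at 4805 CPM in Mutant and 890.0 CPM in Control, and Plet1, at 1418 CPM in Mutant and 317 CPM in Control. The 6 companion layer markers, which include Krt17, summed to 5408 CPM in Mutant and 1309 CPM in Control. Whether these differences have a part in those of Itgb6, Itga2 and Itgb1 was not tested. In the upper follicle class itself, Itgb6 was at 42.7 CPM in Mutant and 27.5 CPM in Control, and in the companion layer class at 21 CPM in Mutant and 11.5 CPM in Control.

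The promoters of the receptor genes that rose in the basal class are shown because these genes moved together there. RefSeq promoter windows (GRCm38.p6, 250 bases before to 50 bases after the start) were matched for 25 of the 38 genes, and each is printed 5′ to 3′ on the gene's own strand. Both strands were searched for the AP-1 motif TGANTCA and the TEAD motif GGAATG, and capitals mark a match. Of 32851 RefSeq promoter windows of this length, 7.81% hold the AP-1 motif and 14.7% the TEAD motif. Itgb6 lies on chromosome 2, minus strand, and its first start site has the window chr2:60722554-60722853, which holds no match. Itga2 lies on chromosome 13, minus strand, and its window chr13:114932051-114932350 holds no match. Itgb1 lies on chromosome 8, plus strand, and its window chr8:128685404-128685703 holds 1 TEAD match, with its first base 7 bases before the start.
Itgb6: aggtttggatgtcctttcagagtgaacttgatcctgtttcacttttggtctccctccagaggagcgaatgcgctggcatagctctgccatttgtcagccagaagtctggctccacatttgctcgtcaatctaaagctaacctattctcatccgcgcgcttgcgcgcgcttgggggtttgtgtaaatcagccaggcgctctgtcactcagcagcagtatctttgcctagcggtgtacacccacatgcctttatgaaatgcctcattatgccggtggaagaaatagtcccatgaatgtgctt
Itga2: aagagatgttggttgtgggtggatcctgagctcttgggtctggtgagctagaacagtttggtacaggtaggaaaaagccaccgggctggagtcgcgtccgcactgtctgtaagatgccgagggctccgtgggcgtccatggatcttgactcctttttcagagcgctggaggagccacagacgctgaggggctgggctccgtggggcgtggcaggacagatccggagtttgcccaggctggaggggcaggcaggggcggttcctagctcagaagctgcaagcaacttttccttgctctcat
Itgb1: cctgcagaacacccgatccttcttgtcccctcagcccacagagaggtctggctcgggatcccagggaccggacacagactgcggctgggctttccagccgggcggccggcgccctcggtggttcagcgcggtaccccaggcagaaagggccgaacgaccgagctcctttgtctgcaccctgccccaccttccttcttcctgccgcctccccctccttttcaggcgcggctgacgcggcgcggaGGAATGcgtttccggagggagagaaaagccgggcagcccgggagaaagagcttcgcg
A match is a run of letters and does not show that a factor binds there, and a window without one says nothing about the factor.

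In outer root sheath keratinocyte-like cells (768 Mutant and 1885 Control cells, a single cluster), 1 of 14 compared members was called higher in Mutant, where 1.09% of 4320 features were called higher and 1.67% lower. Lama3 had 262 UMIs (57.4 CPM) in Mutant and 396 UMIs (28.4 CPM) in Control, a log2 ratio of 1.01 (0.78 to 1.24). It lies close to the threshold and was 0.71 in cells thinned to 1500 UMIs, 0.79 at a finer clustering resolution and 0.98 with the libraries clustered separately, none of which pass. An RNA gene model, Gm29200, overlaps Lama3 exons on the opposite strand. Itga6, at 257 CPM in Mutant and 145 CPM in Control (0.83, 0.72 to 0.93), came next and did not pass. The partner of Itga6, Itgb4, was at 83.3 CPM in Mutant and 79.3 CPM in Control (0.07, -0.10 to 0.24), and Itgb6, at 43.8 CPM in Mutant and 36.8 CPM in Control, had a log2 ratio of 0.25 (0.01 to 0.49). The summed outer root sheath markers were close, at 13366 CPM in Mutant and 13662 CPM in Control.

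Itga6 also had an interval above 0 in the companion layer (0.93, 0.75 to 1.11), the upper follicle (0.62, 0.49 to 0.75) and the inner root sheath (0.60, 0.45 to 0.75), without passing the size rule. None of the 6 members compared in the companion layer passed, where 2.23% of 4312 features were called higher and 2.3% lower, and neither did Itga6 or Itgb1, the 2 members compared in the inner root sheath, where 3.37% of 4156 features were called higher and 1.37% lower. In the larger inner root sheath cluster, cluster 1, with 556 Mutant and 1041 Control cells, Itga6 passed at 1.07 (0.85 to 1.30). In another clustering, a class is represented by its best match there, with an overlap given as shared cells over cells in either. In the match clustered without genes of large ratio (overlap 0.51), Itga6 passed at 1.57. With the libraries clustered separately (0.70 in Mutant and 0.51 in Control), Itga6 passed at 1.40 and Itgb1 at 1.06. In cluster 23, the smaller one, with 73 Mutant and 263 Control cells, Itga2 (2.65, 2.11 to 3.19) and Itgb6 (1.76, 1.33 to 2.18) passed and Itga6 (0.89, 0.69 to 1.09) did not. Itga2 (1.92) and Itgb6 (1.29) also passed in the whole class when no CPM minimum was set. In companion layer cell-like cells Itga6 was at 190.2 CPM in Mutant and 99.9 CPM in Control, and it passed at 1.085 at a finer clustering resolution. In upper follicle keratinocyte-like cells, 9 of 9 compared members had ratios above 1 and 8 of them had an interval above 0 on the log2 scale, against 53.2% and 36.7% of all features compared in this class. None of the 9 passed, where 4.70% of 4450 features were called higher and 6.11% lower in Mutant. Itgav (0.87, 0.62 to 1.12), Lama3 (0.83, 0.49 to 1.16) and Itgb1 (0.75, 0.60 to 0.91) were the nearest. Itgb6 in that class was at 0.63 (0.30 to 0.97). In the matched class it passed at 1.71 with doublets kept (overlap 0.61) and 1.43 at a finer clustering resolution (0.50). Separate clustering matched the class to an unnamed Mutant cluster (0.57) and to Control cells named interfollicular suprabasal keratinocyte-like (0.35). These ratios may therefore set unlike cells against each other. In that setting 9 members passed, among them Itgb6 (2.24), Itga2 (2.45), Itgb1 (1.56) and Lamb3 (1.45). With no CPM minimum, Itga2 passed in the class itself, at 1.35. In cluster 6, which was led by hair shaft genes such as Krt35, Itga6 and Itgb1 were the members compared, where 1.46% of 3907 features were called higher and 1.59% lower. Neither passed, and both levels were marked as possible free RNA because they were under 10% of the gene's highest class in each library. In the matches to cluster 6, Itga6 passed at 1.02 at a finer resolution and 1.27 when clustered without genes of large ratio. With the libraries clustered separately, Itga6 passed there at 1.29.

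Lama4 was the member that rose in dermal papilla cell-like cells. It had 196 UMIs (105 CPM) in the 325 Mutant cells and 327 UMIs (44.5 CPM) in the 498 Control cells, a log2 ratio of 1.24 (0.98 to 1.5). It was 1 of 11 compared members, in a class where 8.64% of 5542 features were called higher and 8.99% lower in Mutant. Mutant dermal papilla cell-like cells were shallower, with a median of 3054 UMIs against 8542 UMIs in Control. In cells thinned to 1500 UMIs the log2 ratio of Lama4 was 0.73, and as a mean of per-cell CPM it was 0.93, neither of which passes. In the dermal papilla class, lymphatic endothelial markers, which lead the cluster with the highest Lama4 level, summed to 55.8 CPM in Mutant and 7.48 CPM in Control, endothelial markers to 85.3 CPM in Mutant and 150.0 CPM in Control, and fibroblast markers to 3225 CPM in Mutant and 2366 CPM in Control. Their part in the ratio was not tested. Itgav (0.89, 0.58 to 1.2) and Itgb5 (0.56, 0.29 to 0.83) had intervals above 0 in these cells. Itga1, a collagen receptor chain, went the other way, at 74.0 CPM in Mutant and 108.5 CPM in Control (-0.55, -0.82 to -0.29), and it passed as lower in thinned cells, at 40.3 CPM in Mutant and 114 CPM in Control (-1.50, -2.34 to -0.75). A gene model, Gm49395, shares exons with Itga1 on the same strand.

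Fibroblast-like cells (493 Mutant and 390 Control cells) had 15 members compared and none past the size rule, where 3.38% of 4906 features were called higher in Mutant and 4.95% lower. The largest ratio was that of Itgb3, which pairs with Itgav, from 78 UMIs in Mutant and 24 UMIs in Control (log2 ratio 1.24, 0.56 to 1.96). Its lower bound kept it from being called, but it passed under 5 other settings, at 1.42 with TMM factors, 1.43 with DESeq2 size factors, 1.30 with stricter cell filters, 1.35 with doublets kept and 1.34 when clustered without genes of large ratio. Itga5 was at 63.2 CPM in Mutant and 34.9 CPM in Control (0.86, 0.42 to 1.31), and passed at 1.04 with TMM factors, 1.05 with DESeq2 size factors and 1.19 as a mean of per-cell CPM. In the same class, Itga6 passed at 1.26 as a mean of per-cell CPM, and Itga8 passed as lower at -1.95 in thinned cells. Itga11, a collagen receptor chain of fibroblasts, was at 37.0 CPM in Mutant and 64.7 CPM in Control (-0.81, -1.22 to -0.39). The laminin chains Lama2, Lamc1, Lamb1 and Lamc3 had intervals that included 0, while those of Lama4 (0.33) and Lamb2 (0.40) lay above 0.

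T cell or NK cell-like cells (1301 Mutant and 2950 Control cells) expressed chains known to hold such cells in an epithelium. Itgae and Itgb7 pair to bind E-cadherin on keratinocytes, and Itgal pairs with Itgb2 to bind Icam1. Itgb7 was at 107 CPM in Mutant and 189 CPM in Control (log2 ratio -0.82, -1.01 to -0.64), and Itgae was at 130.1 CPM in Mutant and 205 CPM in Control (-0.65, -0.82 to -0.49). Itgal was at 91.6 CPM in Mutant and 52.1 CPM in Control (0.82, 0.58 to 1.05), and Itgav at 387 CPM in Mutant and 256 CPM in Control (0.59, 0.48 to 0.70). None of the 7 compared members passed the size rule, where 4.04% of 4279 features were called higher and 5.75% lower in Mutant. Itgal passed at 1.08 with doublets kept and 1.15 when clustered without genes of large ratio, and Itgb7 passed as lower at -1.06 in thinned cells. Markers of other cells also differed in this class. Langerhans or dendritic cell markers summed to 365 CPM in Mutant and 121 CPM in Control, with 1 of 8 (Flt3) at 0 in both, melanocyte markers to 914 CPM in Mutant and 490 CPM in Control, and inner root sheath markers to 597 CPM in Mutant and 1280 CPM in Control. Macrophage or monocyte markers summed to 57.7 CPM in Mutant and 5.90 CPM in Control, and erythroid markers to 588 CPM in Mutant and 1887 CPM in Control. The T cell or NK cell markers themselves summed to 11516 CPM in Mutant and 12277 CPM in Control. The part of the other markers in these ratios was not tested.

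The clusters of this class differed more than its totals. Cluster 11, with 877 Control and 16 Mutant cells, had Itgae at 360.4 CPM and Itgb7 at 367 CPM in Control. Cluster 2, with 1508 Control and 13 Mutant cells, had Itgae at 154 CPM and Itgb7 at 132 CPM in Control. Cluster 8, with 1081 Mutant and 18 Control cells, had Itgae at 123 CPM and Itgb7 at 103 CPM in Mutant. Cluster 17, led by Il17a and Il17f, held 191 Mutant and 547 Control cells and is the one with a large number from each. There, Itgae was at 145.8 CPM in Mutant and 145.7 CPM in Control (log2 ratio 0.00, -0.41 to 0.40), and Itgb7 at 116 CPM in Mutant and 121 CPM in Control (-0.06, -0.53 to 0.38). Itgal in cluster 17 was at 103 CPM in Mutant and 62.8 CPM in Control (0.71, 0.18 to 1.23), and Itgav at 214 CPM in Mutant and 218 CPM in Control (-0.03, -0.36 to 0.30). Itgb1 in cluster 17 was at 129 CPM in Mutant and 71.9 CPM in Control (0.84, 0.36 to 1.3).

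**Figure D5:**
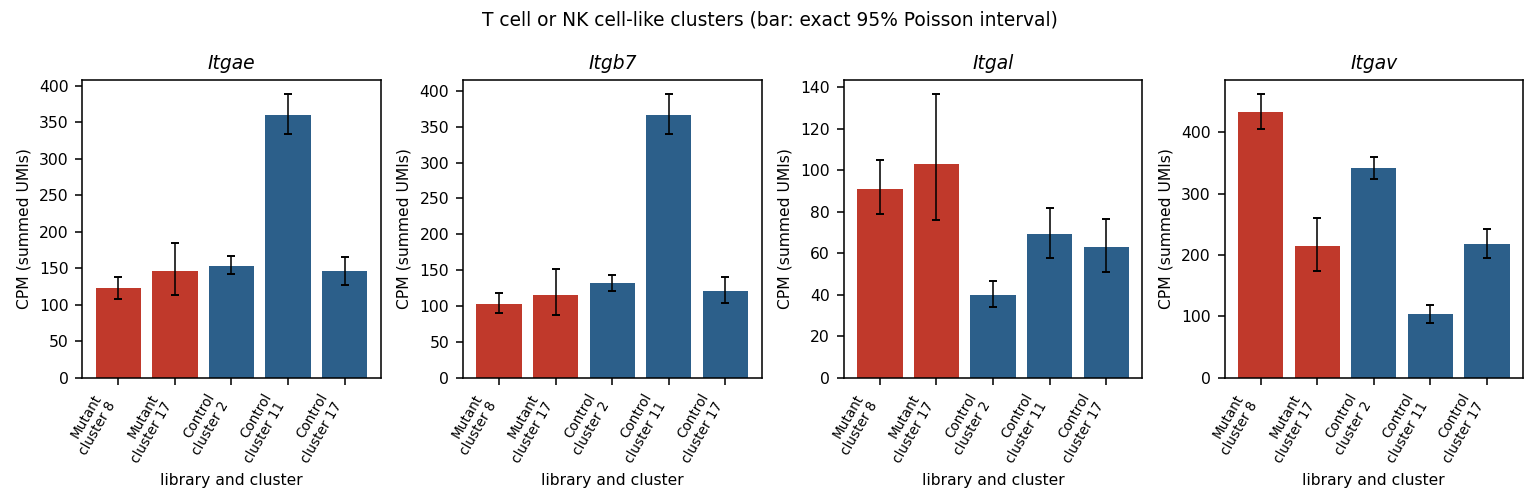
Levels of Itgae, Itgb7, Itgal and Itgav in the T cell or NK cell-like clusters, as CPM of summed UMIs with exact 95% Poisson intervals, for clusters with at least 20 cells of a library and with Mutant left of Control. Itgae and Itgb7 stand highest in Control cluster 11, at 360.4 CPM and 367 CPM, and are close in cluster 17 of both libraries.

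Melanocyte-like cells (1494 Mutant and 1356 Control cells) had 4 members compared, none past the size rule, where 1.07% of 4491 features were called higher and 3.07% lower in Mutant. Itgb1 was at 219 CPM in Mutant and 206 CPM in Control (log2 ratio 0.09, 0.03 to 0.15). Lamb2 (0.80, 0.61 to 0.98) and Itgb3 (0.69, 0.50 to 0.89), both under 40 CPM, had the larger ratios. These cells also lay in separate clusters, cluster 4 with 1285 Mutant and 14 Control cells and cluster 9 with 0 Mutant and 1075 Control cells. In cluster 18, which held 209 Mutant and 267 Control cells, Itgb1 was at 116 CPM in Mutant and 105 CPM in Control (0.16, -0.45 to 0.75).

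Classes with fewer than 200 cells of either library were left out of the comparison above, and 5 of those with 50 or more held members past the size rule. In cluster 7, led by Fgf5 and Pclaf, 4 of 7 members were higher in the 113 Mutant cells than in the 1070 Control cells, where 7.18% of 4764 features were called higher and 1.2% lower. Cluster 3 held 1452 Mutant cells but only 45 Control cells and is not described. Hair matrix markers scored highest in clusters 3 and 7, and neither could be named. Whether cluster 3 holds Mutant counterparts of the Control cells of cluster 7 was not tested. In cluster 15, led by the suprabasal keratinocyte genes Krtdap and Krt10, 1 of 5 members (Itgb6) was higher, where 7.42% of 4275 features were called higher and 13.3% lower. In cluster 19, 1 of 8 members (Lama5) was higher, where 7.14% of 4493 features were called higher and 7.19% lower. In cluster 21, 1 of 12 members (Itgav) was higher, where 2.31% of 5021 features were called higher and 2.43% lower. In cluster 26, led by the antigen presentation gene Cd74 and the Langerhans cell gene Cd207, 3 of 12 members were higher and 1 lower, where 10.1% of 4671 features were called higher and 10.8% lower.

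Partners of the integrins and laminins were described by lists, with the same size rule and classes. Over all pairs, 3.79% were called higher and 5.14% lower. The lists were drawn up with earlier results of these data known. A share above those over all pairs therefore describes the genes picked and is no test of a list. The talin and kindlin adhesion complex, which connects integrins to actin, had 15 of 123 pairs (12.2%) higher in Mutant and 0 lower, at a median log2 ratio of 0.28. In basal keratinocyte-like cells 4 of its 13 compared genes rose, where 6.46% of all features did. The adhesion protein Zyx was at 148 CPM in Mutant and 35.8 CPM in Control there (2.04, 1.85 to 2.24), and Pxn at 106 CPM in Mutant and 32.8 CPM in Control (1.70, 1.49 to 1.91). The filamin Flna rose in the T cell or NK cell-like class, to 468 CPM in Mutant against 97.8 CPM in Control (2.26, 2.12 to 2.39). Zyx in cluster 6 was at 35.5 CPM in Mutant and 11.4 CPM in Control (1.64, 1.26 to 2.03).

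Hemidesmosome partners had 1 of 32 pairs (3.12%) higher and 0 lower, close to the share over all pairs, at a median log2 ratio of 0.09. That pair was Col17a1, the transmembrane collagen of hemidesmosomes, at 1482 CPM in Mutant and 729 CPM in Control in basal keratinocyte-like cells (1.02, 0.98 to 1.07), where the median of the 5 list genes was -0.54. Basement membrane partners of laminins had 0 of 49 pairs higher and 3 (6.12%) lower, at a median of 0.07. In the basal class, Smoc2, a secreted calcium-binding matrix protein, fell to 81.1 CPM in Mutant against 193 CPM in Control (-1.25, -1.39 to -1.12). Npnt, a ligand of the Itga8 receptor, fell to 18.9 CPM in Mutant against 40.9 CPM in Control (-1.11, -1.40 to -0.83). In upper follicle cells Smoc2 fell to 23.2 CPM in Mutant against 47.4 CPM in Control (-1.03, -1.44 to -0.65). The basement membrane list had a median of -0.61 over its 5 genes compared in the basal class.

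Other integrin ligands had 10 of 68 pairs (14.7%) higher and 5 (7.35%) lower, at a median log2 ratio of 0.27. Among these, Spp1 in fibroblast-like cells (higher) and Postn in upper follicle cells (lower) were marked as possible free RNA. Spp1 (osteopontin, a ligand of Itgav receptors) fell in the T cell or NK cell-like class, to 8.13 CPM in Mutant against 304 CPM in Control (-5.23, -5.90 to -4.62). Thbs1 (thrombospondin) rose in dermal papilla cell-like cells, to 113 CPM in Mutant against 14.3 CPM in Control (2.99, 2.64 to 3.34). Tnc, the tenascin bound by Itga9 and Itgb6 receptors, rose in fibroblast-like cells, to 56.1 CPM in Mutant against 8.02 CPM in Control (2.81, 2.01 to 3.72). In upper follicle cells Tnc fell, to 15.2 CPM in Mutant against 39.4 CPM in Control (-1.37, -1.87 to -0.90). Ctgf rose in dermal papilla cell-like cells, to 241 CPM in Mutant against 87.8 CPM in Control (1.46, 1.28 to 1.63).

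A list of proteases, drawn up as enzymes that cut or process laminin and including several Adam genes, had 4 of 34 pairs (11.8%) higher and 0 lower. Its median log2 ratio was 0.36. Cutting of laminin by these enzymes was not measured. Among the higher pairs, Mmp14 in the inner root sheath class was marked as possible free RNA. Mmp3 rose in fibroblast-like cells, to 336 CPM in Mutant against 42.4 CPM in Control (2.99, 2.64 to 3.35). Adam8 rose in basal keratinocyte-like cells, to 323 CPM in Mutant against 60.2 CPM in Control (2.43, 2.28 to 2.58), and was also a leading gene of cluster 5. Adam15 rose in the T cell or NK cell-like class, to 96.8 CPM in Mutant against 24.6 CPM in Control (1.98, 1.70 to 2.26). Non-integrin laminin receptors had 1 of 47 pairs (2.13%) higher and 0 lower, at a median of -0.03, and that pair was Sdc4, a syndecan, in fibroblast-like cells, at 893 CPM in Mutant and 402 CPM in Control (1.15, 1.03 to 1.28). Integrin inhibitors had 1 of 25 pairs (4%) higher and 1 (4%) lower, at a median of -0.10. Filip1l rose in dermal papilla cell-like cells (2.21, 1.84 to 2.58), and Kank1, a talin-binding protein, fell in basal keratinocyte-like cells, to 16.7 CPM in Mutant against 53.8 CPM in Control (-1.69, -1.97 to -1.41).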

How the data were processed

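Cells were profiled with 10x Genomics 3' v3 libraries. Per the file headers, the authors used Cell Ranger 3.0.2 to make the deposited counts, whole UMIs for every gene in every barcode. The submitters' processing notes list GRCm38 (mm10) among builds and Seurat 3.0.0 and 3.1.0 among tools. The labels tie no barcode to a listed sample, so each matrix is 1 sample. The Mutant matrix held 13411 barcodes with 97817173 UMIs and the Control matrix 16973 barcodes with 140880809 UMIs. Of the 39 genes that the symbol rule takes in, 1 is not reported here. The members and lists were chosen with earlier results of these data known.

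Barcodes under 500 genes or over 15% mitochondrial UMIs were dropped, namely 1396 Mutant and 2430 Control barcodes for few genes and 560 Mutant and 387 Control barcodes for mitochondrial UMIs. Scrublet calls were removed, 408 in Mutant (3.56%, against 9.16% expected from the number of cells) and 413 in Control (2.92%, against 11.3% expected), so doublets may remain. Clustering used scanpy 1.11.5 on Python 3.11.15, with 2000 variable genes that held no cell cycle, sex-linked or member gene, 30 principal components (scikit-learn 1.9.0), 15 neighbours and Leiden resolution 1 (leidenalg 0.10.2, igraph 0.11.9), with no batch integration. A cluster took a name only from listed markers, of which at least 3 were detected, and otherwise kept its number.

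For each class, UMIs were added up within a library and scaled by that sum over all features (CPM). Log2 ratios, Mutant over Control, carry the exact conditional 95% interval of 2 Poisson counts, and levels and shares have exact Poisson and Clopper-Pearson intervals (scipy 1.17.1). A ratio was compared where both libraries together had at least 20 UMIs and the higher one at least 30 CPM. Members past the size rule are named, and so are the highest class of each member at 30 or more CPM and up to 4 genes per list; other genes were chosen after their values were seen. Levels under 10% of a gene's highest class in both libraries were marked as possible free RNA. Levels of different genes were not compared with each other. The ratio code was tested on simulated counts.

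Alternatives were TMM factors (edgeR 4.0.16, R 4.3.3) and DESeq2 1.42.0 size factors, other CPM minimums, means per cell, thinned cells, clusters weighted equally, stricter filters, doublets kept, other resolutions, member genes among the variable genes, clustering without genes of large ratio, and each library clustered on its own. Where cells were clustered anew, the values of a class are those of its best match by shared cells, which can hold partly other cells. Gene overlaps come from the GENCODE vM21 annotation of GRCm38, and promoters from RefSeq.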

Additional observations from a re-analysis of the deposited data

Results flagged for a closer look

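Members past the size rule in classes with too few cells for the comparison are given here, as values outside it. In cluster 7, with 113 Mutant and 1070 Control cells, the collagen receptor chain Itga1 was at 92.8 CPM in Mutant and 20.3 CPM in Control (log2 ratio 2.19, 1.75 to 2.61). Itgb1 was at 310 CPM in Mutant and 134 CPM in Control (1.21, 0.99 to 1.42), and the laminin chains Lama5 (1.45, 1.01 to 1.86) and Lamb1 (1.45, 1.14 to 1.74) were higher too. Cluster 3, with 1452 Mutant and 45 Control cells, had the same best-scoring marker set as cluster 7. The ratios in cluster 7 may therefore set unlike cells against each other, which was not tested. Summed outer root sheath markers were 3659 CPM in Mutant and 2317 CPM in Control in cluster 7, bulge markers 3784 CPM in Mutant and 1735 CPM in Control, and dermal sheath markers 1008 CPM in Mutant and 357 CPM in Control. Their part in these ratios was not tested.

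In cluster 15, Itgb6 was at 49.0 CPM from 258 UMIs in Mutant and 13.5 CPM from 23 UMIs in Control (log2 ratio 1.86, 1.24 to 2.54). Granular keratinocyte markers summed to 6972 CPM in Mutant and 2799 CPM in Control there, and hair matrix markers to 352 CPM in Mutant and 1015 CPM in Control. In cluster 19, Lama5 was at 64.4 CPM in Mutant and 28.4 CPM in Control (1.18, 0.64 to 1.76). Upper follicle markers summed to 4086 CPM in Mutant and 2435 CPM in Control there, and inner root sheath markers to 1487 CPM in Mutant and 3776 CPM in Control. In cluster 21, Itgav was at 171 CPM in Mutant and 81.2 CPM in Control (1.07, 0.59 to 1.56). Melanocyte markers summed to 1857 CPM in Mutant and 1038 CPM in Control there. The part of these markers in the ratios was not tested.

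Cluster 26 had 108 Mutant and 88 Control cells. Itgb6 was at 144 CPM in Mutant and 34.6 CPM in Control (log2 ratio 2.06, 1.57 to 2.57) and Itga2 at 112 CPM in Mutant and 33.9 CPM in Control (1.72, 1.2 to 2.25). The leukocyte chain Itgb2 was at 54.7 CPM in Mutant and 14.5 CPM in Control (1.91, 1.13 to 2.73). Itga3 was at 19.9 CPM in Mutant and 60.2 CPM in Control (-1.60, -2.47 to -0.82). Summed Langerhans or dendritic cell markers were 27278 CPM in Mutant and 10815 CPM in Control, macrophage or monocyte markers 2584 CPM in Mutant and 416 CPM in Control, basal keratinocyte markers 10876 CPM in Mutant and 19551 CPM in Control, upper follicle markers 4941 CPM in Mutant and 1436 CPM in Control, neutrophil markers 2396 CPM in Mutant and 7.62 CPM in Control, and mast cell markers 585 CPM in Mutant and 3681 CPM in Control. Their part in these ratios was not tested.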

How the results depend on the processing

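No paired analysis was possible because each group is 1 matrix whose barcodes the labels tie to no sample. With 1 library per group, depth bounds counting error only, and mouse-to-mouse spread is unknown. Of 79 pairs, 5 were higher and 0 lower in Mutant, where 1697 and 2297 of 44731 pairs over all features were. Counts over all features stand in brackets below. The higher count was 10 of 80 with TMM factors (2249 of 44617) and 10 of 80 with DESeq2 size factors (2297 of 44582). It was 16 of 211 with no CPM minimum (3193 of 114238) and 3 of 80 in thinned cells (1105 of 45572). With doublets kept it was 10 of 80 (1625 of 44981), and at resolution 0.5 it was 9 of 72 (1475 of 40147). It was 10 of 72 when clustered without genes of large ratio (1614 of 40454) and 15 of 82 with the libraries clustered separately (1789 of 44812). Many of these 15 were in the upper follicle match, which may set unlike cells against each other. The higher count was 12 of 134 (2992 of 76475) with classes of 100 or more cells, an alternative chosen after seeing the data. TMM factors moved log2 ratios up by 0.29 in the basal class, 0.18 in fibroblast-like, 0.15 in melanocyte-like and 0.14 in the T cell or NK cell-like class. The lower count was 4 of 211 with no CPM minimum (6157 of 114238) and 1 of 81 with means of per-cell CPM (2258 of 44906), Itga8 in the dermal papilla. It was 4 of 80 in thinned cells (1638 of 45572). These were Itgb7 in the T cell or NK cell-like class, Itga8 in fibroblasts and the dermal papilla, and Itga1 in the dermal papilla. Weighting clusters equally left cluster 10 alone in the basal class and reversed Itgb6 (-0.23) and Itgb1 (-0.31); its construction, with 59 Mutant cells, keeps 1 of the 2 clusters. Over 15 settings, Itgb6 and Itga2 in the basal class passed in 14, Itgb1 in 13, Lama4 in the dermal papilla in 13 and Lama3 in the outer root sheath in 11. Some of these passes were fixed in advance, because dropping the CPM minimum or adding smaller classes reuses the same counts. Equal weighting likewise leaves the ratios of Lama3 and Lama4 as they were, since each of their classes is 1 cluster. Basal Itgb1 was 0.99 with libraries clustered apart, and Lama4 was 0.93 with per-cell means, for which the cause was not tested.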

Other observations

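Within the inner root sheath cell-like class, cluster 23, led by Krt71 and Tchh and with 73 Mutant and 263 Control cells, had Itga2 at 41.4 CPM in Mutant and 6.60 CPM in Control (log2 ratio 2.65, 2.11 to 3.19) and Itgb6 at 49.6 CPM in Mutant and 14.6 CPM in Control (1.76, 1.34 to 2.18). In the T cell or NK cell-like cluster 17, which was led by Il17a, Itga4, a receptor chain for Vcam1, had 28 UMIs in 191 Mutant cells and 29 UMIs in 547 Control cells (1.68, 0.87 to 2.48). Itgb3 had 21 UMIs in Mutant and 23 UMIs in Control there (1.60, 0.67 to 2.51). These clusters were picked after their values were seen.

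In the clustering without genes of large ratio, numbered apart from the first, Itga6 was at 204 CPM in Mutant and 79.7 CPM in Control in a cluster of 1317 Mutant and 833 Control cells (log2 ratio 1.36, 1.23 to 1.49). Itga2 was at 67.4 CPM in Mutant and 7.46 CPM in Control in a cluster of 151 Mutant and 336 Control cells (3.18, 2.41 to 4.01). In a cluster of 123 Mutant and 187 Control cells, Itgb4 was at 36.7 CPM in Mutant and 96.5 CPM in Control (-1.40, -2.30 to -0.59).

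Exons of Itga4, Itga7, Itga8, Itgad, Itgav, Itgb4, Lama2, Lama3 and Lamc3 overlap a gene model on the opposite strand, and exons of Itga1, Itga10, Itgad and Itgam overlap one on the same strand. How far reads were shared among them was not tested.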
